A study of Mus musculus with 15 samples.

Results

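Aminoacyl-tRNA synthetase genes were followed in mouse primary myoblasts after knockdown of Sirt1 or of Lmod1. The genes were chosen by name: protein-coding genes whose symbol joins an amino acid letter to "ars", with or without a 2, together with Eprs, Farsa and Farsb. The choice used no measured value. It gave 37 of the 49315 gene IDs in the count tables, 20 without a suffix, which are called cytosolic here, and 17 with the suffix 2, which are called mitochondrial. All 37 passed the filter on low counts in every comparison.

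The cells were wild-type C57BL/6J primary myoblasts, the precursors of muscle fibres, from 5 primary lines. Each line received small interfering RNA against Sirt1 (siSirt1), against Lmod1 (siLmod1) or a control RNA (siCtrl) with a lipid reagent, and was then differentiated for 1 day. Sirt1 encodes an NAD-dependent deacetylase and Lmod1 an actin filament nucleator. Polyadenylated RNA was sequenced in 15 libraries, 5 in each group, which the labels number as replicates 1, 2, 3, 4 and 7. The labels do not say that a number marks the same line in all 3 groups. This was taken from the correlations between libraries, given further on, and the numbers are called lines here.

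Aminoacyl-tRNA synthetases join each amino acid to its transfer RNA and so supply every ribosome with substrate. Cytosolic and mitochondrial protein synthesis mostly use separate enzymes from separate nuclear genes, although Gars and Kars each encode the enzyme of both compartments, and mitochondrial glutaminyl-tRNA is made by an amidotransferase instead. Phenylalanyl-tRNA synthetase of the cytosol is built from an alpha subunit (Farsa) and a beta subunit (Farsb), several other cytosolic enzymes share the multisynthetase complex, and many cytosolic synthetase genes are targets of ATF4, the transcription factor of the integrated stress response.

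ATF4 binds with C/EBP partners to the C/EBP-ATF response element, searched here as TGATGNAA on both strands of the RefSeq promoter windows of GRCm38.p6, which run from 250 bases before to 50 bases after a gene's start. Such a window was at hand for 27 of the 37 genes. The letters stood in 5 of 13 cytosolic windows and in 0 of 14 mitochondrial windows, against 4.51% of the 27025 genes of the table. The 5 genes were Aars, Gars, Iars, Tars and Yars, all from a list of 12 synthetases linked to ATF4, of which 8 had a window. They are shown because ATF4 targets are described further on. Capitals mark the match, which reads TTNCATCA where the element lies on the other strand.

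Aars, chr8:111033700-111033767, plus strand, match 112 bases before the start: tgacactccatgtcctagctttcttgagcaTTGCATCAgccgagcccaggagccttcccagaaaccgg
Gars, chr6:55037941-55038000, plus strand, match 30 bases before the start: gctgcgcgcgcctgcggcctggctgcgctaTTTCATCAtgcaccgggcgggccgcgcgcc
Tars, chr15:11399659-11399703, minus strand, match 15 bases before the start: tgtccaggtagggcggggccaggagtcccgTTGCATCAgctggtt
Iars, chr13:49682126-49682155, plus strand, match 7 bases after the start: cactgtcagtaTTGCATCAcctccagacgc
Yars, chr4:129189895-129189924, plus strand, match 3 bases after the start: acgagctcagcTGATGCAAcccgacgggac

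Aars held another match 9 bases after its start. A match describes letters only, and a window without one says nothing about binding.

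The libraries held 21004908 to 27815744 counted reads in siSirt1, 27135398 to 31829009 in siLmod1 and 26097889 to 33601761 in siCtrl. Sirt1 stood at 3.49 to 10.7 library-size-scaled counts (CPM) in siSirt1 and 17.9 to 36.2 in siCtrl, and Lmod1 at 1.41 to 5.46 in siLmod1 and 6.22 to 44.3 in siCtrl. Each target had p = 0.00794 by an exact permutation test, two-sided (n = 5 per group), the smallest that 5 against 5 libraries allow. The other target differed too: with the line as a block, Lmod1 fell in siSirt1 (log2 fold change -0.96, edgeR adjusted p = 0.0271, lower in 5 of 5 lines), and Sirt1 rose in siLmod1 (0.54, adjusted p = 0.000141, higher in 5 of 5 lines). On the group alone neither passed (adjusted p = 0.716 and 0.514). In that fit the silenced genes did not pass either. Sirt1 in siSirt1 had a log2 fold change of -2.06 (edgeR adjusted p = 0.0735) and Lmod1 in siLmod1 -3.13 (0.0685). With the block both passed, at -2.18 (edgeR adjusted p = 0.00272) and -3.07 (2.8e-06). A lack of calls on the group alone therefore does not show that a gene was unchanged. All 8 myoblast markers exceeded 1 CPM. The summed smooth muscle and pericyte markers ranged from 84.8 to 207 CPM in siSirt1, 46.7 to 95.7 in siLmod1 and 56.7 to 194 in siCtrl. Those of endothelium ranged from 0.976 to 42.7, 1.21 to 90.8 and 1.32 to 104 CPM. Those of Schwann cells ranged from 6.66 to 22.4, 6.38 to 8.94 and 5.67 to 9.93 CPM. Those of fibroblasts ranged from 2.23 to 22.7, 3.17 to 6.09 and 4.65 to 15.7 CPM. Macrophage and leukocyte markers summed to at most 7.61 CPM and adipocyte markers to at most 0.51. No marker was at 0 in all libraries, and the part of such cells in the results was not tested. The siSirt1 library of line 1 correlated least with its line, at 0.323 with siCtrl and 0.357 with siLmod1.

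Cytosolic synthetase transcripts were far more abundant than mitochondrial ones in all 3 groups. In TPM, a level scaled for transcript length, the 20 cytosolic genes summed to 2734 ± 472 in siSirt1, 2734 ± 463 in siLmod1 and 2551 ± 339 in siCtrl (SD, n = 5). The 17 mitochondrial genes summed to 357 ± 98.9 TPM in siSirt1, 338 ± 13.7 in siLmod1 and 343 ± 84.7 in siCtrl, and the group means differed by less than the spread within siSirt1 and within siCtrl. For the mitochondrial class this rests on Lars2, as given further on. Nars, the asparaginyl enzyme, had the highest level, with 480.3 ± 101, 476 ± 143 and 437 ± 105 TPM in siSirt1, siLmod1 and siCtrl, and Gars, the glycyl enzyme, came next, with 381 ± 144, 428 ± 139 and 367 ± 95.3 TPM. These 2 neighbours overlapped in every group. Near the other end stood Pars2, the mitochondrial prolyl enzyme, with 5.51 ± 1.07, 4.78 ± 0.825 and 4.84 ± 1.35 TPM.

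**Figure D1:**
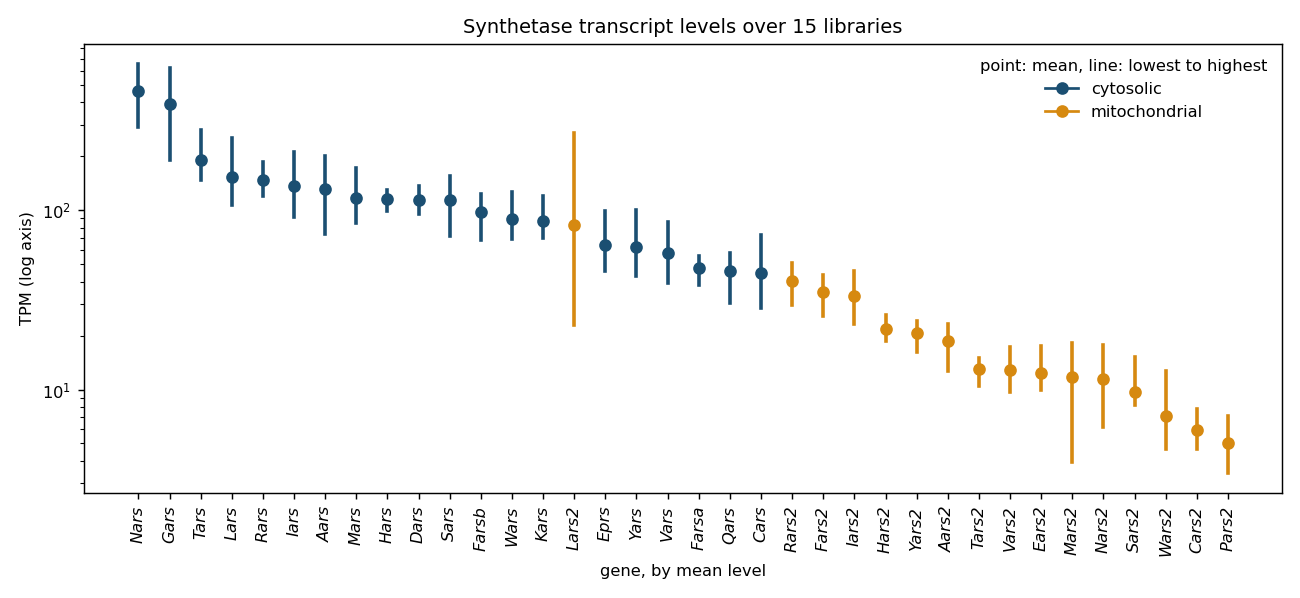
TPM of the synthetase genes described here on a log axis, ordered by the mean over 15 libraries; points are means and lines run from the lowest to the highest library. By their means, the mitochondrial genes other than Lars2 lie below all 20 cytosolic ones. Some ranges overlap, such as Rars2 at 29.7 to 50.7 TPM and Cars at 28.4 to 72.3. Lars2 stands among the cytosolic genes with the widest range on this axis, 22.9 to 271 TPM.

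Set against its partner for the same amino acid, the cytosolic gene was higher in all 15 libraries for 17 of 18 pairs. The exception was leucine, where Lars was above Lars2 in 13 of 15 libraries. The mean ratio of a pair had a median over pairs of 6.30 in siSirt1, 6.53 in siLmod1 and 6.22 in siCtrl. Such a ratio is taken within a library and does not depend on how libraries are scaled.

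Among the pairs whose siSirt1 and siCtrl ratios did not overlap were both subunits of the phenylalanyl enzyme. Farsb over Fars2, the mitochondrial phenylalanyl enzyme, was 1.84 to 2.55 in siSirt1, 2.69 to 3.38 in siLmod1 and 3.04 to 3.58 in siCtrl. Farsa over Fars2 was 1.05 to 1.26 in siSirt1, 1.23 to 1.41 in siLmod1 and 1.35 to 2.08 in siCtrl. Both ratios share Fars2 and are not independent. Fars2 itself averaged 36.9 ± 4.08 TPM in siSirt1, 36.9 ± 4.59 in siLmod1 and 30.9 ± 4.26 in siCtrl. The ratio of Farsb was also below all siLmod1 libraries, and no pair separated siLmod1 from siCtrl. The pairs were picked out after their values were seen, and no test was made of them.

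The first question was which synthetase transcripts differ once Sirt1 is lowered, in siSirt1 against siCtrl. With the line as a block, 3 synthetases fell: Farsb and Iars, both cytosolic, and Iars2, a mitochondrial one. Their blocked log2 fold changes ran from -0.51 to -0.30. The 3 came from both classes, and each class held genes on both sides of 0. A difference between the classes was not tested.

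Fitted on the group alone, edgeR called 0 of the 37 at a threshold of 0.05 on the p adjusted after Benjamini and Hochberg. It called 0.127% of all 14912 genes, and 5 of the 37 had an unadjusted p under 0.05. DESeq2 on the group alone called 2, among them Farsb, with 2.19% of all genes called. With the line number as a block, which takes out the differences between the 5 primary lines, edgeR called 4 of 37, or 10.8%, beside 7.07% of all genes. In that fit 2.72% of all genes were higher and 4.35% lower. The blocked calls were lost without line 1, 2 or 3, and only Iars was called without line 4 or without line 7.

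Farsb (ENSMUSG00000026245, mm10 chromosome 1, 78417975 to 78488897, minus strand), the beta subunit of the cytosolic phenylalanyl enzyme, stood at 64.9, 70.1, 68.1, 53.4 and 50.8 CPM in siSirt1 lines 1, 2, 3, 4 and 7. It stood at 87.6, 99.0, 96.4, 101 and 80.3 CPM in siLmod1 and at 77.0, 94.6, 86.6, 99.7 and 78.9 CPM in siCtrl. Every siSirt1 library was thus below every library of the other 2 groups. The log2 fold change over siCtrl was -0.51 (SE 0.13, adjusted p = 0.194) and with the block -0.51 (SE 0.11, adjusted p = 0.0331), lower in 5 of 5 lines.

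Farsa (ENSMUSG00000003808, mm10 chromosome 8, 84856989 to 84869257, plus strand), the alpha subunit, was singled out after its values were seen, since it is the partner of Farsb. It stood at 60.6, 66.3, 58.2, 59.9 and 49.6 CPM in siSirt1, 75.1, 66.6, 64.5, 82.9 and 63.8 in siLmod1 and 77.5, 75.7, 66.5, 89.1 and 67.6 in siCtrl. All 5 siSirt1 libraries were below all 5 siCtrl libraries. The blocked log2 fold change was -0.35 (SE 0.088, adjusted p = 0.0527), which did not pass the threshold. Farsb over Farsa in TPM averaged 1.81 ± 0.174 in siSirt1, 2.30 ± 0.267 in siLmod1 and 2.02 ± 0.208 in siCtrl.

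Iars (ENSMUSG00000037851, mm10 chromosome 13, 49682100 to 49734267, plus strand), the cytosolic isoleucyl enzyme and a member of the multisynthetase complex, stood at 161, 156, 218, 157 and 200.3 CPM in siSirt1. It stood at 247, 247, 333, 222 and 218 CPM in siLmod1 and at 245, 211, 299, 249 and 243 CPM in siCtrl. Only the siSirt1 library of line 3 reached into the siCtrl range, above siCtrl line 2, and within each line siSirt1 was the lowest of the 3 groups. The log2 fold change was -0.48 (SE 0.14, adjusted p = 0.261) and with the block -0.49 (SE 0.084, adjusted p = 0.0173).

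Iars2 (ENSMUSG00000026618, mm10 chromosome 1, 185284726 to 185329396, minus strand), the mitochondrial isoleucyl enzyme, stood at 71.7, 80.9, 71.1, 94.3 and 58.7 CPM in siSirt1, 116, 112, 116, 135 and 86.9 in siLmod1 and 88.9, 99.5, 92.3, 107 and 74.5 in siCtrl. The groups overlapped, but within all 5 lines the order was siSirt1, siCtrl, siLmod1 from low to high. Over siCtrl the log2 fold change in siSirt1 was -0.29 (SE 0.15, adjusted p = 0.559) and with the block -0.30 (SE 0.073, adjusted p = 0.0482). The annotation places 2034 of its 8885 exon bases (22.9%) opposite exons of Rab3gap2, and the libraries keep no strand. Rab3gap2 itself had blocked log2 fold changes of 0.063 in siSirt1 (adjusted p = 0.737) and -0.080 in siLmod1 (adjusted p = 0.302).

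Wars2, the mitochondrial tryptophanyl enzyme, stood at 12.7, 14.4, 13.4, 19.1 and 21.6 CPM in siSirt1, 13.3, 11.4, 11.4, 13.4 and 13.2 in siLmod1 and 12.8, 10.6, 11.3, 9.77 and 9.65 in siCtrl. Lines 4 and 7 were the highest in siSirt1, and siSirt1 overlapped siCtrl only through its line 1, while siLmod1 overlapped siCtrl as well. Its log2 fold change over siCtrl did not pass the threshold, at 0.56 with the block (SE 0.19, adjusted p = 0.113), and it was higher in 4 of 5 lines.

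**Figure D2:**
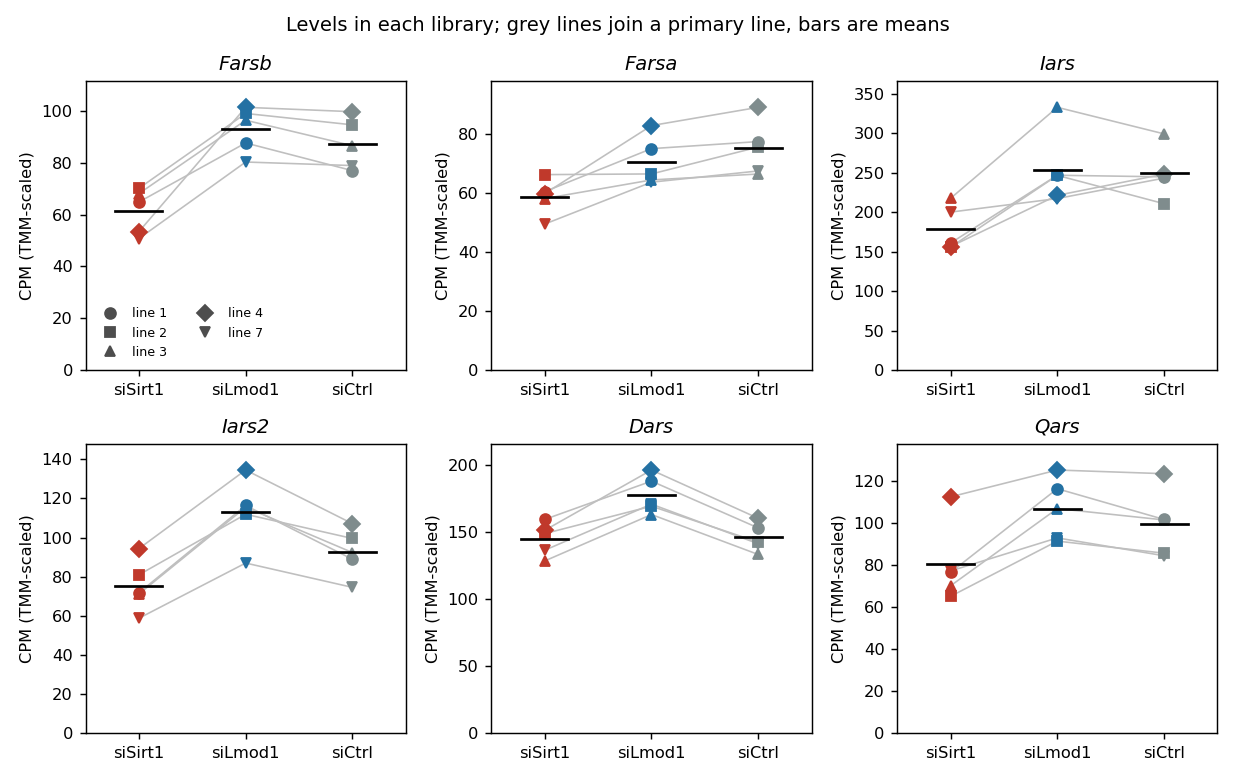
CPM in each library (marker shape: line) for 6 genes, with siSirt1 left, siLmod1 in the middle and siCtrl right; black bars are means and grey lines join a primary line. Farsb lies at 50.8 to 70.1 CPM in siSirt1, below all libraries of the other groups, while Iars2 is lowest in siSirt1 in each line.

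The other 33 synthetases did not pass the threshold in siSirt1 in either edgeR fit. Over the class, the median log2 fold change without the block was -0.015 for the cytosolic genes, with 9 above 0 and 11 below, and 0.017 for the mitochondrial genes, with 10 above and 7 below. The median over all 14912 genes was 0.019, with 52.5% above 0. On the TPM scale the median of all genes shifts to 0.116, and the mitochondrial median to 0.129.

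The cytosolic genes were also read by their link to ATF4. The 12 linked genes had a median log2 fold change of 0.13 in siSirt1 against siCtrl, with 9 above 0 and 3 below, and the 8 other cytosolic genes a median of -0.15, with all 8 below 0. Neither set held a call on the group alone, and with the block 1 of 12 fell (Iars) and 1 of 8 fell (Farsb). On the TPM scale the medians were 0.249 and -0.007, with 4 of the 8 above 0, beside the shift of 0.116 over all genes. The linked median differed by line, at -0.13, 0.28, 0.36, -0.30 and 0.057 in lines 1, 2, 3, 4 and 7, whereas the 8 other genes lay at -0.21, -0.12, -0.086, -0.15 and -0.21. Yars, the tyrosyl enzyme, had the highest linked value, 0.21 with the block (SE 0.098, adjusted p = 0.218), and Iars, whose promoter window also holds the element's letters, the lowest.

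The 33 other ATF4 targets had a median log2 fold change of 0.34 in siSirt1, or 0.27 with the block, with 27 above 0 and 0 called on the group alone. With the block 6 of 33 rose and 0 fell, beside 2.72% of all genes higher in that fit. Their difference from the linked synthetases was not tested. Trib3, a pseudokinase that restrains ATF4 signalling, averaged 39.7 ± 21.9 CPM in siSirt1 and 19.1 ± 10.2 in siCtrl (SD, n = 5; blocked log2 fold change 1.05, adjusted p = 0.0134). Cebpg, a C/EBP partner of ATF4, averaged 48.7 ± 11.5 CPM in siSirt1 and 32.1 ± 7.13 in siCtrl (0.60, adjusted p = 0.00903). Sesn2, which senses leucine and restrains mTORC1, and Nupr1, a stress-induced chromatin protein, rose as well, with blocked log2 fold changes of 0.56 (adjusted p = 0.0281) and 1.12 (adjusted p = 0.0284). Trib3 and Cebpg were called in all 5 blocked fits that leave out 1 line, Sesn2 and Nupr1 in 2 of 5.

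Atf4 itself averaged 352 ± 89.99 CPM in siSirt1 and 303 ± 44.5 in siCtrl, and its blocked log2 fold change of 0.19 did not pass (adjusted p = 0.411). Ddit3, the CHOP transcription factor, rose with the block by 0.80 (adjusted p = 0.0341, against 0.417 on the group alone) but was called in 0 of 5 fits that leave out 1 line. Its exons face 68 exon bases of Mars, the cytosolic methionyl enzyme, whose own value was 0.13 (adjusted p = 0.576). Of 8 eIF2 kinases and regulators, 3 rose with the block, or 37.5% beside 2.72% of all genes: Impact, an inhibitor of the eIF2 kinase GCN2, Eif2ak3, the kinase PERK, and Ppp1r15b, a phosphatase subunit that dephosphorylates eIF2. On the group alone their adjusted p was 0.269, 0.598 and 0.532, and without 1 line the blocked call held in 1, 0 and 0 of 5 fits. The rise of Impact was not particular to siSirt1. Its blocked log2 fold change over siCtrl was 0.45 in siSirt1 and 0.74 in siLmod1 (edgeR adjusted p = 5.44e-05 in siLmod1, 0.0602 on the group alone). In siLmod1 it was called in 5 of 5 fits without 1 line. Between the knockdowns Impact was lower in siSirt1 (-0.30 with the block, adjusted p = 0.0269). Among 10 mitochondrial translation factors 1 fell and 0 rose with the block, or 10%, beside 4.35% of all genes lower. It was the elongation factor Tufm (-0.34, adjusted p = 0.0454, against 0.342 on the group alone). Its call was lost in 5 of 5 fits without 1 line. Of the 8 myoblast markers, 6 lay below 0 in siSirt1 (median -0.34, below 0 in each line) and 1 fell with the block, and their part in the values of this comparison was not tested.

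**Figure D3:**
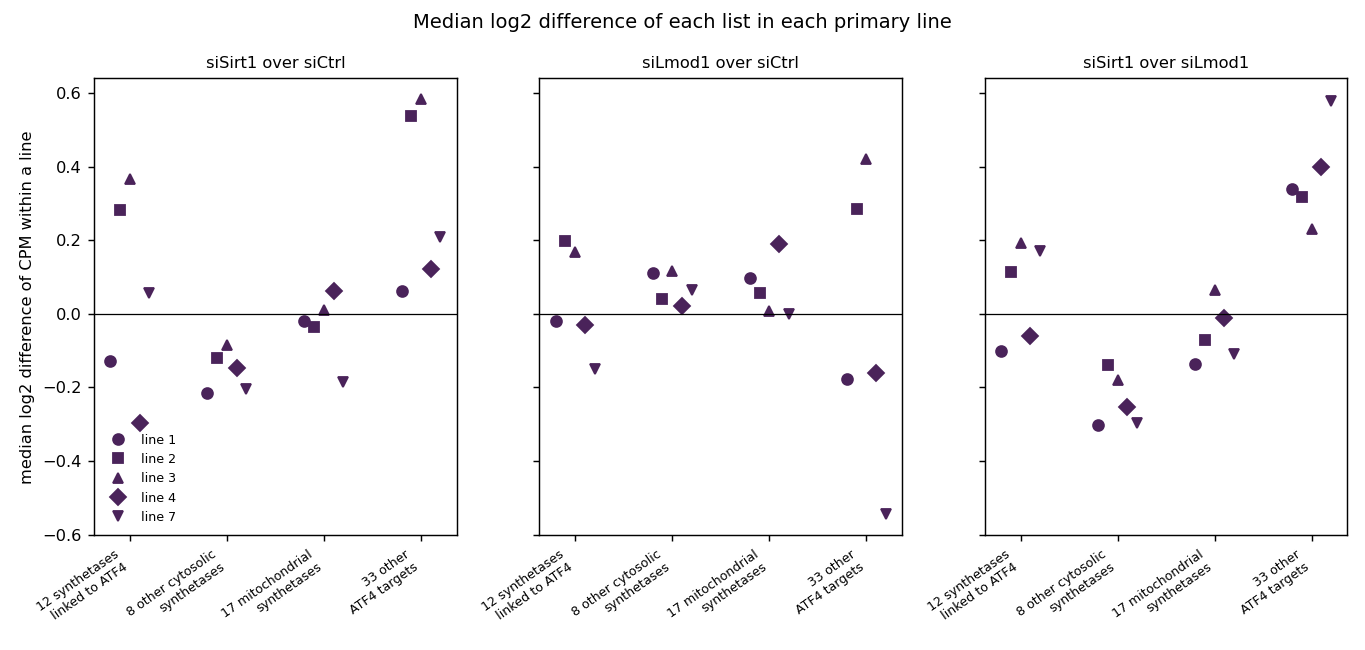
Median log2 difference of CPM within each of the 5 primary lines for 12 ATF4-linked cytosolic synthetases, the 8 other cytosolic ones, the 17 mitochondrial ones and 33 other ATF4 targets, for siSirt1 over siCtrl, siLmod1 over siCtrl and siSirt1 over siLmod1. In siSirt1 over siCtrl the 8 other cytosolic genes are below 0 in every line and the other ATF4 targets above 0 in every line, while the linked synthetases lie on both sides, from -0.30 to 0.36.

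The comparison of siLmod1 with siCtrl asked the same of Lmod1. With the block 4 synthetases rose, Dars, Eprs, Iars2 and Rars2, and 2 fell, Sars and Nars2, with blocked log2 fold changes of -0.35 to 0.28. On the group alone edgeR called 0 of 37 (0.113% of 15022 genes; 2 of 37 at an unadjusted p under 0.05), and DESeq2 called 0 (1.8% of all genes). The 6 blocked calls are 16.2% of the family, below the 29.5% of all genes called in that fit, of which 12.9% were higher and 16.5% lower. In the same fit 4 of 8 myoblast markers and 3 of the 4 tested smooth muscle and pericyte markers were lower, and their part in these values was not tested.

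Dars (ENSMUSG00000026356, mm10 chromosome 1, 128363707 to 128417368, minus strand), the cytosolic aspartyl enzyme of the multisynthetase complex, stood at 188, 169, 163, 196 and 171 CPM in siLmod1 lines 1, 2, 3, 4 and 7, against 153, 143, 133, 160.4 and 141 CPM in siCtrl. In siSirt1 it stood at 159.5, 149, 128, 151 and 137 CPM. Every siLmod1 library was above every siCtrl and every siSirt1 library. The log2 fold change over siCtrl was 0.27 (SE 0.084, adjusted p = 0.322) and with the block 0.27 (SE 0.042, adjusted p = 0.00117), and the blocked call was kept without each line in turn.

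Iars2, whose values are given above, rose in siLmod1 by 0.28 with the block (SE 0.049, adjusted p = 0.00241; 0.566 on the group alone), in 5 of 5 lines and without each line in turn. Eprs, the glutamyl-prolyl enzyme, stood at 355, 351, 468, 405 and 317 CPM in siLmod1, against 298, 284, 393, 389 and 289 CPM in siCtrl. The groups overlapped, and the blocked value was 0.19 (SE 0.052, adjusted p = 0.0194), higher in 5 of 5 lines. Rars2, the mitochondrial arginyl enzyme, stood at 41.6, 38.4, 38.5, 40.9 and 35.3 CPM in siLmod1, against 33.1, 36.8, 34.01, 34.4 and 32.4 CPM in siCtrl. It too was higher in 5 of 5 lines with overlapping groups, and its blocked value was 0.18 (SE 0.057, adjusted p = 0.0387).

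Nars2, the mitochondrial asparaginyl enzyme, stood at 19.6, 27.0, 19.7, 21.1 and 26.5 CPM in siLmod1, against 25.2, 39.1, 20.5, 28.7 and 32.2 CPM in siCtrl. It was lower in 5 of 5 lines with overlapping groups, by a blocked log2 value of -0.35 (SE 0.076, adjusted p = 0.00715), and was called without each line in turn. Sars, the cytosolic seryl enzyme, stood at 169, 154, 234, 171 and 121 CPM in siLmod1, against 203, 161, 225, 219 and 176 CPM in siCtrl. It was lower in 4 of 5 lines, the exception being line 3, with a blocked value of -0.24 (SE 0.080, adjusted p = 0.0433). Of the 5 blocked fits that leave out 1 line, 2 called Eprs, 1 called Rars2 and 1 called Sars.

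**Figure D4:**
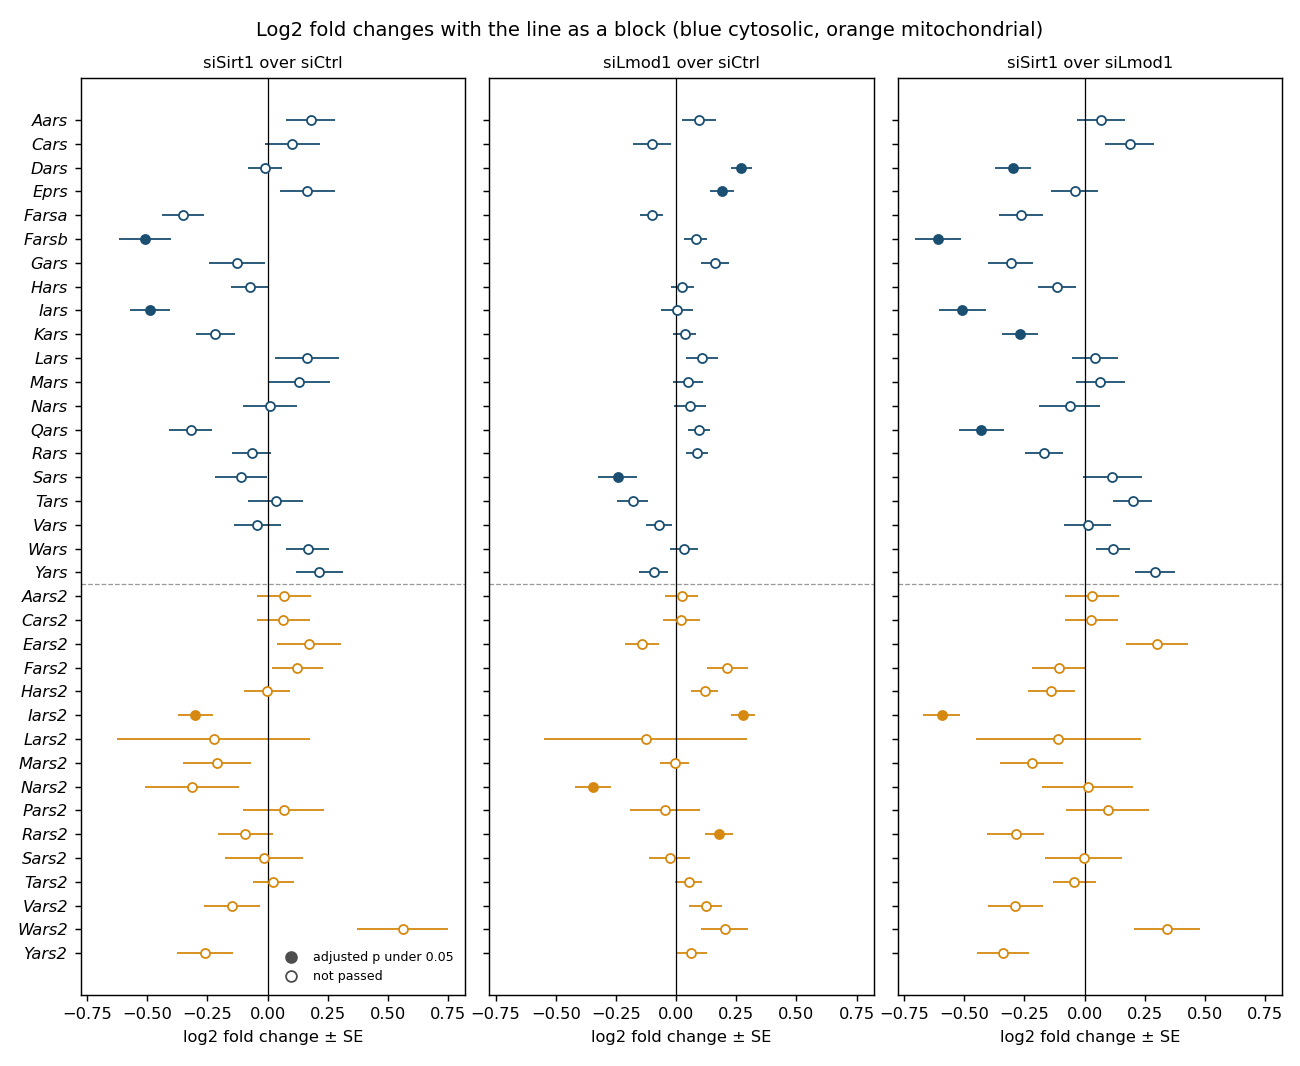
Log2 fold change ± SE from the blocked edgeR fit for each gene described here, for siSirt1 over siCtrl, siLmod1 over siCtrl and siSirt1 over siLmod1; filled points passed an adjusted p under 0.05. There are 3, 6 and 6 filled points, and Iars2 is lower in siSirt1 and higher in siLmod1 than in siCtrl.

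The class medians in siLmod1 were 0.044 for the cytosolic genes (14 of 20 above 0) and 0.052 for the mitochondrial genes (11 of 17 above 0), against -0.013 over all genes with 47.8% above 0. All 8 synthetases of the multisynthetase complex lay above 0, between 0.012 and 0.27. With the block 2 of them rose, Dars and Eprs, and 0 fell. That is 25.0%, beside 12.9% of all genes higher and 29.5% called in either direction. The 33 other ATF4 targets had a median of 0.024, or -0.072 with the block. In the blocked fit 0 of them rose and 3 fell, or 9.09%, beside 16.5% of all genes lower. The 3 were Slc7a5 and Slc1a5, amino acid carriers, and Phgdh, the first enzyme of serine synthesis. On the group alone their edgeR adjusted p was 0.859, 0.851 and 0.888. Without 1 line the blocked call held in 2, 1 and 1 of 5 fits. Of 14 genes that work beside the synthetases, 3 rose with the block and 0 fell, or 21.4%, beside the same 12.9% and 29.5%. Among them was Gatb, a subunit of the mitochondrial amidotransferase (0.31, adjusted p = 0.0348; 0.664 on the group alone), which was called in 1 of 5 fits without 1 line.

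The direct comparison of siSirt1 with siLmod1 tested where the 2 knockdowns differed, and it shares its libraries with the comparisons above. On the group alone edgeR called 1 of 37, Farsb, beside 1.53% of 14998 genes, and DESeq2 called 2, Farsb and Iars2, beside 5.69%. With the block 6 synthetases were lower in siSirt1 and 0 were higher: Dars, Farsb, Iars, Kars and Qars, and the mitochondrial Iars2. That is 16.2% of the family, beside 15.9% of all genes, of which 7.43% were higher and 8.43% lower. With the block 1 of 8 myoblast markers was higher and 3 were lower, and their part in these values was not tested.

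Farsb differed by -0.60 (SE 0.13, adjusted p = 0.0484), and with the block by -0.61 (SE 0.096, adjusted p = 0.0072), and the blocked call was kept without each line. The call on the group alone was lost without any 1 library other than siSirt1 line 2. Iars2 differed by -0.59 with the block (SE 0.077, adjusted p = 0.00414), also without each line, Iars by -0.51 (SE 0.099, adjusted p = 0.0143) and Dars by -0.30 (SE 0.075, adjusted p = 0.0326). All 4 were lower in siSirt1 in 5 of 5 lines. Of the 5 blocked fits that leave out 1 line, 3 called Iars, 2 called Qars, and 0 called Dars or Kars.

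Qars, the glutaminyl enzyme, stood at 76.4, 65.0, 70.0, 112 and 77.1 CPM in siSirt1, against 116, 91.3, 107, 125 and 92.8 CPM in siLmod1. Line 4 was the highest of both groups and the groups overlapped only through it. Its blocked value was -0.43 (SE 0.093, adjusted p = 0.0203). Kars, the lysyl enzyme, stood at 94.1, 101, 99.4, 146 and 103 CPM in siSirt1, against 125, 119, 115, 177 and 117 CPM in siLmod1, with a blocked value of -0.27 (SE 0.074, adjusted p = 0.0439). Yars lay just outside the threshold on the other side, at 0.29 (adjusted p = 0.05004), higher in 5 of 5 lines.

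Dars, Iars, Kars and Qars belong to the multisynthetase complex, whose 8 genes had a median of -0.22 between the knockdowns, with 6 below 0 and 4 called lower with the block; on the TPM scale the median was -0.11 with 0 calls. The 3 scaffold genes of the complex held 0 calls in the blocked fit. The cytosolic median of -0.059 turned to 0.056 on the TPM scale. Without the block, the 8 cytosolic synthetases without an ATF4 link had a median of -0.27 and the 12 linked ones 0.073. With the block, 4 of the 8 were called lower (Dars, Farsb, Kars and Qars), against 1 of 12. Dars, Kars and Qars are the complex genes named above, so the complex and the unlinked genes share these calls. Of the 33 other ATF4 targets 10 were higher and 1 lower with the block (median 0.31), beside 7.43% and 8.43% of all genes. On the group alone 0 of the 33 were called. The smallest blocked p among the 33 was that of Slc7a5, with 407 ± 169 CPM in siSirt1 and 270.1 ± 124 in siLmod1. Its blocked value was 0.61 (edgeR adjusted p = 0.00598, against 0.472 on the group alone).

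The primary lines differed among themselves. Line 3 had the highest CPM of 14 of the 20 cytosolic genes in siSirt1, 12 in siLmod1 and 11 in siCtrl, and 11 of 20 were highest there in all 3 groups. The mitochondrial genes had no such line: the most in 1 line was 6 of 17. Over the 15 libraries the highest CPM was 1.29 to 3.25 times the lowest for a cytosolic gene (median 1.97), and 1.37 to 5.27 times for a mitochondrial gene other than Lars2. The 5.27-fold range was that of Mars2, the mitochondrial methionyl enzyme, which stood lowest in line 4 in each group, at 13.4 CPM in siSirt1, 20.7 in siLmod1 and 21.1 in siCtrl, and highest in line 2, at 61.7, 62.5 and 70.6 CPM.

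Lars2 (ENSMUSG00000035202, mm10 chromosome 9, 123366927 to 123462666, plus strand), the mitochondrial leucyl enzyme, varied 13.8-fold. It stood at 91.4, 104, 225, 899 and 157 CPM in siSirt1, 116, 195, 187, 306 and 313 in siLmod1 and 328, 116, 75.7, 1045 and 211 in siCtrl. Line 4 was far above the other lines in siSirt1 and siCtrl but not in siLmod1, where line 7 was the highest, and the groups overlapped. Its blocked log2 fold changes were -0.22 in siSirt1 (SE 0.40, adjusted p = 0.772) and -0.13 in siLmod1 (SE 0.42, adjusted p = 0.857).

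The values of Lars2 ran with those of features that carry ribosomal RNA. Over the 15 libraries its log2 CPM correlated at 0.979 with Gm42418, which RefSeq names Rn18s-rs5, at 0.995 with Mir6236, at 0.985 with Gm24187 and at 0.982 with Gm15564. Without line 4 the 4 correlations were 0.949 to 0.99 over 12 libraries. The libraries share lines and scaling, and these features were chosen after the values were seen. The 16 other mitochondrial synthetases correlated with Lars2 at -0.686 to 0.70, with a median of -0.146. When the Lars2 transcripts were compared with the 4 features, a stretch of 72 bases matched Gm15564 at 98.6% identity. No match to Gm42418, Mir6236 or Gm24187 was recorded. What part of the reads counted for Lars2 came from ribosomal RNA was not tested. Without Lars2 the mitochondrial genes summed to 268 ± 10.2 TPM in siSirt1, 276 ± 15.9 in siLmod1 and 249 ± 18.03 in siCtrl. The spread of the sum was thus far smaller without Lars2 in siSirt1 and siCtrl, though not in siLmod1. The siSirt1 and siLmod1 means were then above the siCtrl mean by more than the SD of any group. On the TPM scale, however, the median of all genes over siCtrl was itself 0.116 in siSirt1 and 0.027 in siLmod1. On counts without the block, the 16 genes had a median log2 fold change of 0.019 in siSirt1, beside 0.019 over all genes. In siLmod1 it was 0.057, beside -0.013.

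**Figure D5:**
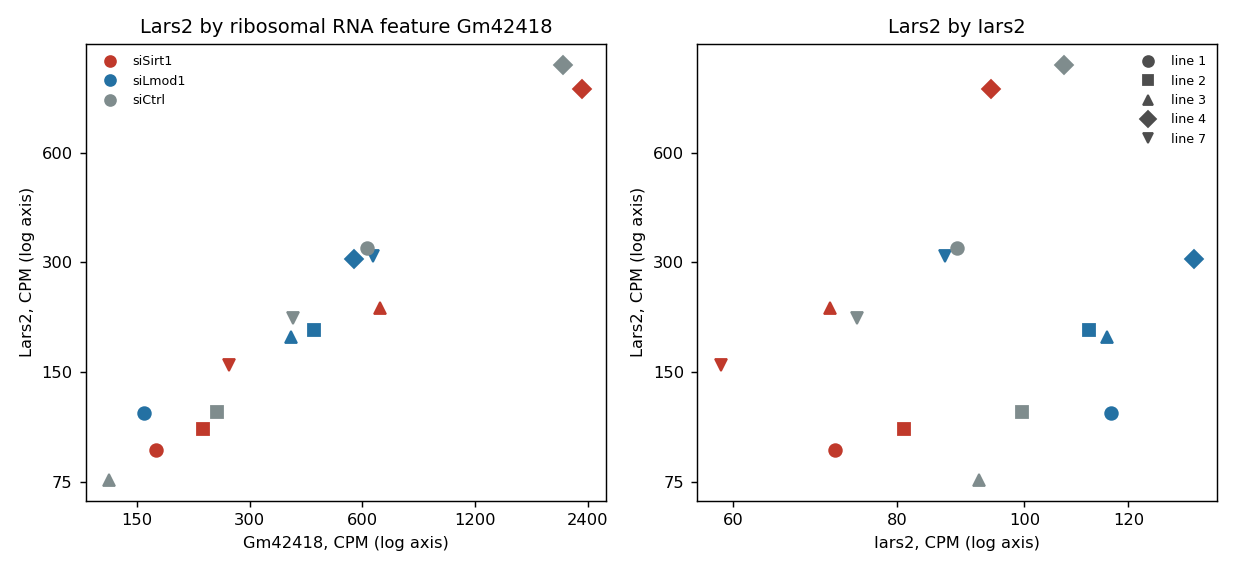
Lars2 CPM against the ribosomal RNA feature Gm42418 (left) and against Iars2 (right) in 15 libraries, all on log axes; colour gives the group and marker shape the line. Lars2 follows Gm42418 (r = 0.979 on log2 CPM, n = 15) from 75.7 to 1045 CPM.

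Exon overlap touches the counts of other members. In the annotation 10 of the 37 genes share exon bases with another protein-coding gene, and how reads common to both were counted is not given in the sources used here. All 1326 exon bases of Exosc6, an exosome subunit, lie within exons of Aars, the cytosolic alanyl enzyme, and Exosc6 was listed at 0 counts in all 15 libraries. Hars and Hars2 face each other over 195 bases, and Fars2 and Nrn1 over 501. Nrn1, a neuritin gene named for this overlap after its values were seen, averaged 32.1 ± 40.2 CPM in siSirt1, 119 ± 185 in siLmod1 and 104 ± 181 in siCtrl. Line 4 stood highest in each group, at 104, 448 and 428 CPM. Blocked log2 fold changes over siCtrl were -1.001 in siSirt1 (edgeR adjusted p = 0.0456) and 0.428 in siLmod1 (0.0322). On the group alone adjusted p was 0.667 and 0.992, and without 1 line the calls held in 0 and 2 of 5 fits. Between the knockdowns the blocked value was -1.45 (adjusted p = 0.00714, 0.392 on the group alone), called in 5 of 5 such fits. The share of Nrn1 in the reads of Fars2, the denominator of the Farsa and Farsb ratios, was not tested. In RNA from whole cultures a fall in a transcript and a smaller share of the cells that carry it cannot be told apart.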

How the data were processed

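The authors deposited raw counts per Ensembl gene, TPM and normalized counts for each pair of groups. The deposited counts and TPM of a library were identical wherever it appeared, for all 15 libraries, and the normalized signal was not used. The submitters' processing notes name the build mm10 and DESeq2; the sources used here give no aligner, counter or annotation. The kit, TruSeq v2 per the labels' protocols, keeps no strand. No library of another series was present in the tables.

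Counts were read in Python 3.11.15 with pandas 2.3.3. Each pair of groups was filtered with filterByExpr, scaled by TMM and fitted on all genes by the quasi-likelihood F test of edgeR 4.0.16 (R 4.3.3), with Benjamini-Hochberg adjustment over all genes and a threshold of 0.05. Log2 fold changes are the first group named minus the second. CPM use TMM factors of all 15 libraries. DESeq2 1.42.0 and limma 3.58.1 on log2(TPM + 1) were alternatives. Depth was 21004908 to 33601761 counts per library, and PCR copies are not independent molecules.

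The fit of record used the group alone (8 residual degrees of freedom). The line number as a block (4 residual degrees of freedom) was an alternative. The series text speaks of 5 primary lines, and the numbers pair the libraries: after group means were removed, same-numbered libraries correlated at 0.323 to 0.926 (15 pairs) and others at -0.561 to 0.288 (60 pairs) over 15716 genes. Blocked values are therefore given beside each result. With 1 library per line and group, p-values reflect the spread among these lines only.

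The members, gene lists (written from general knowledge) and tests were chosen with earlier results of these data known. Values in every library are given for members called in either fit, at most 5 per class, direction and comparison, and up to 4 called genes of each other list were candidates for naming. Farsa, Wars2, Mars2, Yars, Lars2, the extremes of level, the ribosomal RNA features, Rab3gap2, Nrn1 and Exosc6 were named after their values were seen. Overlaps are from GENCODE M21, promoter windows from RefSeq. The fits were tested on simulated data. For 1 member no values of its own are reported here.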

Additional observations from a re-analysis of the deposited data

Results flagged for a closer look

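Farsb changed differently in the 2 knockdowns: the direct comparison of siSirt1 with siLmod1 gave a log2 difference of -0.601 (edgeR, adjusted p = 0.0484), with siSirt1 lower in 5 of 5 lines. In 8 of the 111 gene and group combinations a single library stood apart from the other 4 by more than Dixon's 95% limit, where chance at 1 in 20 gives 5.55. The figure given for each is the gap to the nearest library divided by the range of the group. Kars was high in line 4 in each group, with 146.5 CPM in siSirt1 (0.801), 177.5 in siLmod1 (0.817) and 187 in siCtrl (0.738). In siSirt1, line 3 was high for Cars (141 CPM, 0.812), Eprs (532 CPM, 0.714) and Wars (128 CPM, 0.74), and line 4 for Sars2 (15.1 CPM, 0.768). In siLmod1, line 7 was low for Pars2 (3.47 CPM, 0.836).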

How the results depend on the processing

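Without a block, siSirt1 against siCtrl gave 0 calls and DESeq2 2. With the replicate block it gave 4 calls in edgeR, 7 in DESeq2, 4 with RLE scaling, 2 in limma on TPM and 8 with all 15 libraries in 1 fit, but 1 without line 4 and 1 without line 7. In siLmod1 against siCtrl the block turned 0 calls into 6 in edgeR, 7 in DESeq2, 6 with RLE, 9 in limma on TPM and 2 with all libraries in 1 fit. Without line 1, 2, 3, 4 or 7 the blocked count was 3, 5, 5, 4 and 4. In siSirt1 against siLmod1 the 1 call on the group alone became 2 with all libraries in 1 fit, 2 in DESeq2, and 0 with RLE, with no filter or in limma on TPM. Leaving out 1 library gave 0 to 1 calls. With the block it gave 6 in edgeR, 8 in DESeq2, 7 with RLE, 4 in limma on TPM and 10 with all libraries in 1 fit, and 2, 3, 2, 4 and 4 without line 1, 2, 3, 4 or 7.

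On the TPM scale, with and without the block, the mitochondrial median in siSirt1 against siCtrl was 0.129 and the cytosolic median in siSirt1 against siLmod1 was 0.0557. The mitochondrial median there was -0.0687 with the block and without line 3. The other class medians moved by less than the spread between libraries. On the TPM scale the median of all genes was 0.116 in siSirt1 against siCtrl and 0.0906 in siSirt1 against siLmod1. The cause of these differences was not tested. For the called synthetases, 0 of the alternatives reversed the sign of a log2 fold change; genes of the other lists were not followed through all alternatives. Depth limits genes of low level most: Pars2 had 90 to 225 counts per library, and Nars2, a called gene, 370 to 1066.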
